A study of Mus musculus with 6 samples.

Results

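The collagen genes of the mouse were examined in RNA sequencing of the hippocampus. They were taken as all protein-coding genes whose symbol has the form Col, number, a, number, which gave 44 genes among the 37620 gene identifiers counted. By the structure of their proteins 11 were grouped as fibrillar, 6 as type IV (the network of basement membranes) and 27 as other types. The study compared 3 mice whose genotype is given as miR17-92 knockout with 3 wildtype mice. All 6 were C57BL/6 mice aged 13 weeks, and each came from a different litter. The labels used here do not say which bases of the cluster were removed, in which cells, or with which Cre driver if there was one. Collagen expression was compared as knockout over wildtype in whole hippocampus, where fewer cells of a type and less RNA per cell cannot be told apart.

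Collagens are secreted or membrane-bound proteins whose chains wind around each other into a rope-like helix. Fibrillar types form the cables of connective tissue, type IV forms the sheet that lies under endothelium and around the brain, and the remaining types decorate fibrils, form beaded filaments or span membranes. In the brain collagen is made mainly by vascular and meningeal cells, with a few types made by neurons. The miR-17-92 cluster gives several microRNAs that lower the messages they pair with through the seed, the bases near the 5′ end.

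The mature microRNAs of the cluster are shown because their seeds define the sites looked for in collagen messages, with bases 2 to 8 in capitals (5′ to 3′, chromosome 14, RefSeq on GRCm38.p6).
miR-17-5p: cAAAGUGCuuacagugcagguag
miR-20a-5p: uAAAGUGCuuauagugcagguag
miR-18a-5p: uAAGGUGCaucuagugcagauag
miR-19a-3p: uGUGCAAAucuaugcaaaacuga
miR-19b-3p: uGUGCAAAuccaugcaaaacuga
miR-92a-3p: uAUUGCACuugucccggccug
The capitals show 4 different seeds, with miR-17-5p and miR-20a-5p sharing one and the miR-19 pair sharing another. The miR-29 family, which is encoded elsewhere in the genome and is well known for lowering collagen messages, is printed as a yardstick (miR-29a-3p and miR-29b-3p on chromosome 6, miR-29c-3p on chromosome 1).
miR-29a-3p: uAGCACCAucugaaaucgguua
miR-29b-3p: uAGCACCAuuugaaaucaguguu
miR-29c-3p: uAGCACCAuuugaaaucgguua

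A 3′ UTR site below is 30 bases of the message from GENCODE M21, written as DNA, with the complement of a seed in capitals. The 6 collagen genes with a miR-92 site are shown because 5 of them are fibrillar.
Col1a1, miR-92: ttctattcctcaGTGCAATtgtgttgctga
Col1a2, miR-92: ggtcagagcagtGTGCAATatgatccaact
Col5a1, miR-92: ccccacaagaatGTGCAATaatttggaaat
Col11a1, miR-92: atttataaatttGTGCAATgttaggttaaa
Col27a1, miR-92: ggagctttcgatGTGCAATattagaaagga
Col12a1, miR-92: ttcccaggttttGTGCAATgattgtgttta
Sites of the other cluster seeds are shown in the most abundant collagens that hold one, which are Col25a1 for miR-19, Col4a2 for miR-17 and Col5a1 for miR-18.
Col25a1, miR-19: cctggacatttcTTTGCACggtggagactt
Col4a2, miR-17: gaggagatgataGCACTTTtttctatcaaa
Col5a1, miR-18: tcttccctcctgGCACCTTgtactcatgat

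Gene counts per library came to 32284831, 26439693 and 57246827 in knockout replicates 1 to 3, and to 40100762, 43588323 and 31731263 in wildtype replicates 1 to 3. Markers of hippocampal neurons were abundant in all 6 libraries, with Prox1 of granule cells at 167 to 188 CPM (reads of a gene scaled to the gene total of its library). The host transcript of the cluster, Mir17hg, held 30, 35 and 37 reads in knockout libraries, against 43, 47 and 36 reads in wildtype libraries. Scaled to the gene total this was 0.929, 1.32 and 0.646 CPM in knockout and 1.07, 1.08 and 1.13 CPM in wildtype libraries, with knockout replicates at both ends. The 6 hairpin genes had 0 reads in every library, a limit of 3 reads that covers counting error only, so these counts do not check the genotype labels. Nothing in the labels says that samples of a genotype were processed on different days.

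Collagen expression was carried by a few genes. Per kilobase of transcript, the scale on which genes can be compared, the 3 highest collagens made up 41.5% of the summed level, the 5 highest 58.6% and the 10 highest 77.1%. First came Col25a1, a transmembrane collagen of neurons that binds amyloid and guides motor innervation in the mouse, at 23.3 ± 0.908 CPM per kilobase in knockout and 21.6 ± 5.55 in wildtype mice (SD, n = 3 each). Next were Col4a2 at 15.3 ± 0.744 and 14.9 ± 2.55 CPM per kilobase in knockout and wildtype mice, and Col6a1, a chain of beaded filaments, at 13.7 ± 2.62 and 13.5 ± 5.42. Col4a1 had 12.1 ± 0.236 CPM per kilobase in knockout and 12.2 ± 1.67 in wildtype mice. Col19a1, made by interneurons in the mouse, followed at 9.30 ± 1.04 and 8.48 ± 1.52, and Col11a1 led the fibrillar genes at 7.63 ± 2.06 and 8.39 ± 3.99. Col4a2 and Col6a1, Col6a1 and Col4a1, and Col19a1 and Col11a1, each neighbours in this order, did not differ beyond the spread of their libraries. At the other end 9 of the 44 genes averaged under 1 CPM.

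**Figure D1:**
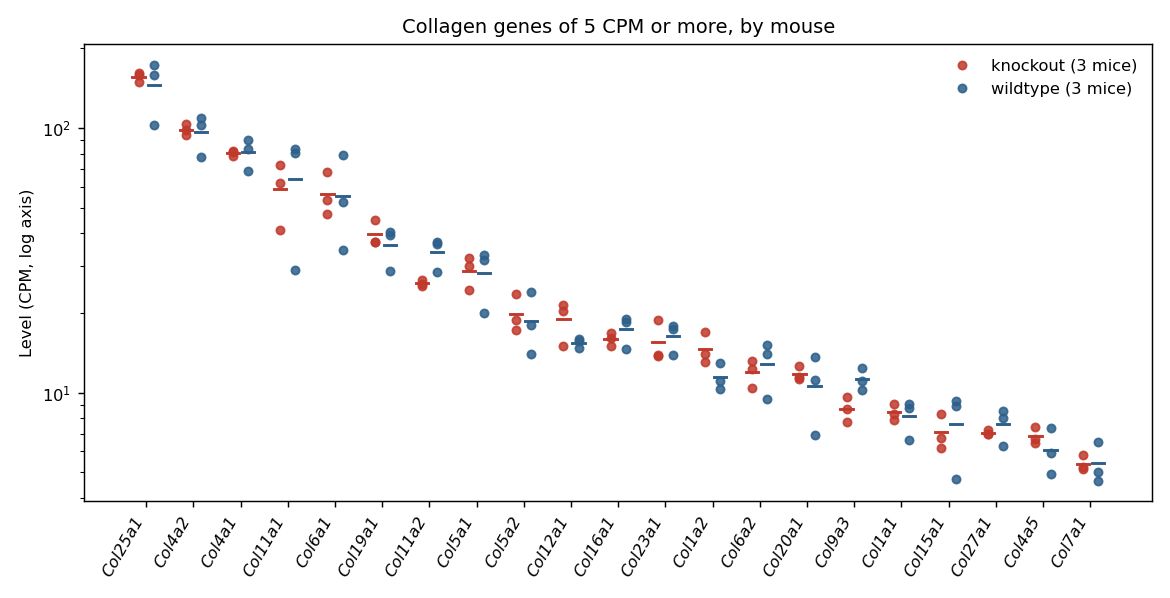
Level in CPM (log axis) of the 21 collagen genes averaging 5 CPM or more, in knockout and wildtype mice; each point is a mouse and each bar the mean of 3 mice. Col11a2 and Col9a3 lie lower in every knockout mouse, and for 14 of the 21 genes the lowest point is a wildtype mouse, replicate 3.

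No collagen gene differed between genotypes after adjustment over all genes. A minimum on read number was passed by 42 collagen genes among the 16432 genes tested, and a gene near that minimum can pass through the genotype where it is higher. Col10a1, of growth plate cartilage, had 0.124, 0.151 and 0.0873 CPM in knockout and 0.0499, 0.184 and 0.189 CPM in wildtype mice, and was not tested. Col17a1, of the skin's attachment plaques, had 0.217, 0.227 and 0.175 CPM in knockout and 0.274, 0.0688 and 0.126 CPM in wildtype mice, and was not tested either. With edgeR's quasi-likelihood test and Benjamini-Hochberg adjustment, 0 of the 42 genes had an adjusted p under 0.05, as did 0 of all tested genes (0.0%). The smallest adjusted p of a collagen was 0.286, for Col11a2. At an unadjusted p under 0.05 stood 4 of the 42 genes (9.52%), against 10.6% of all genes. By direction they were 2 higher in knockout, against 5.05% of all genes, and 2 lower, against 5.58%. The CPM of the genotypes did not overlap for 3 of the 42 (7.14%), against 16.5% of all genes. DESeq2, run as an alternative, called 1 of the 31 collagens to which it gave an adjusted p, Col11a2, and 1.25% of all genes. The share at an unadjusted p is near the background and that of genotypes without overlap is below it, while the DESeq2 share of 3.23% rests on 1 gene. The median log2 fold of the tested collagens was -0.02, with 20 above 0 and 22 below, and the median of all genes was 0.00.

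**Figure D2:**
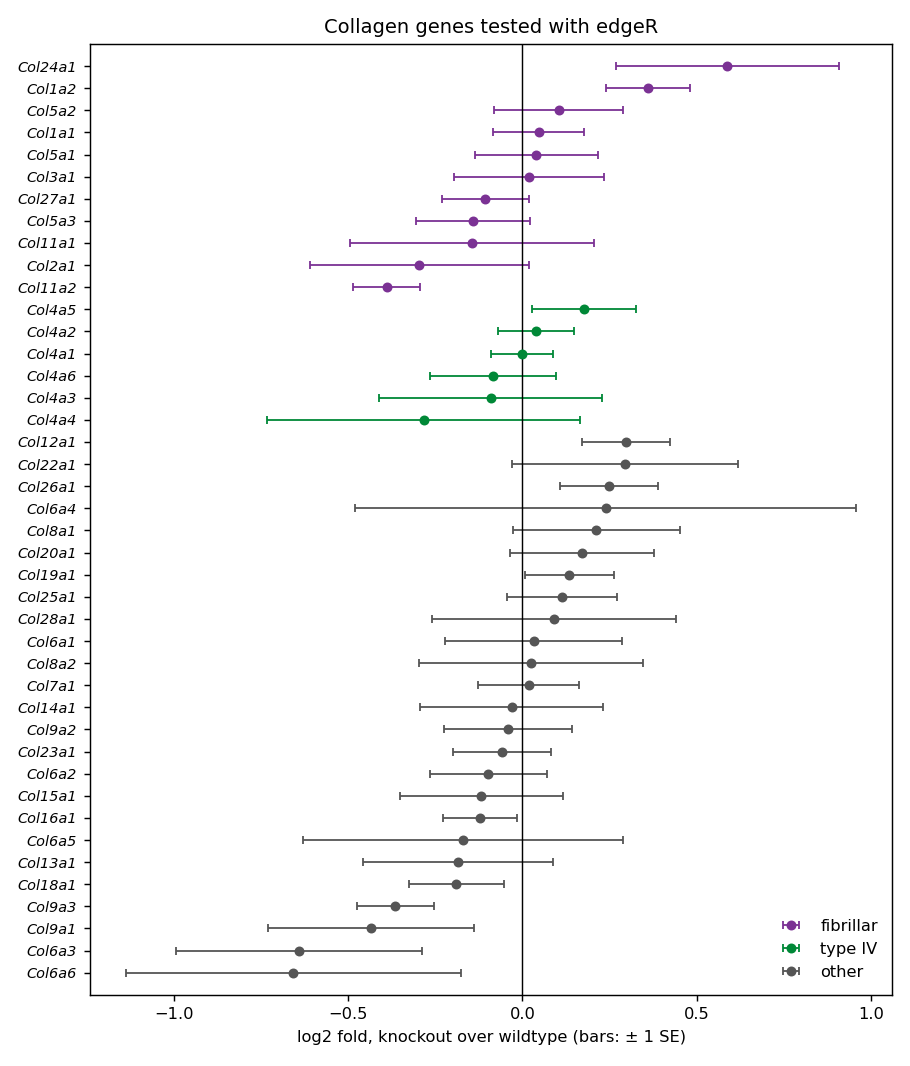
Log2 fold, knockout over wildtype, of the 42 tested collagen genes from edgeR, in 3 structural classes; bars are 1 standard error each way. Folds lie between -0.66 and 0.59 and on both sides of 0 in every class.

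The 11 fibrillar genes were all tested, with 6 folds above 0, 5 below and a median log2 fold of 0.02. Col11a2, a chain of the thin cartilage fibrils and best known for its part in the inner ear, had 25.8, 25.3 and 26.6 CPM in knockout mice, against 36.5, 37.2 and 28.5 CPM in wildtype mice. Every knockout mouse was under every wildtype mouse, and wildtype replicate 3 was the closest to the knockouts. Its log2 fold was -0.39 (SE 0.10), with an unadjusted p of 0.00308 and an adjusted p of 0.286 from edgeR, and an adjusted p of 0.0227 from DESeq2. Over all alternatives its adjusted p ran from 0.0227 to 0.779. Col1a2, the second chain of type I collagen, had 13.1, 16.98 and 14.0 CPM in knockout mice, against 10.3, 13.0 and 11.1 CPM in wildtype mice. The genotypes did not overlap, by a narrow margin between knockout replicate 1 and wildtype replicate 2. Its log2 fold was 0.36 (SE 0.12), with an unadjusted p of 0.0160 and an adjusted p of 0.366 from edgeR.

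Its partner in type I collagen, Col1a1, had 8.30, 9.08 and 7.90 CPM in knockout and 9.08, 8.76 and 6.65 CPM in wildtype mice, a log2 fold of 0.05 (SE 0.13). The groups overlapped. Per kilobase, the ratio of Col1a2 to Col1a1 was 1.75, 2.07 and 1.96 in knockout and 1.26, 1.64 and 1.85 in wildtype mice, so knockout replicate 1 lay below wildtype replicate 3. Col3a1, which forms fibrils with type I in soft tissue, had 3.38, 4.46 and 5.78 CPM in knockout and 4.59, 5.44 and 3.59 CPM in wildtype mice, with the groups interleaved.

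Col11a1, the partner of Col11a2, had the widest ratio of highest to lowest mouse, 2.87, among the 21 collagens averaging 5 CPM or more, with 62.2, 72.2 and 41.2 CPM in knockout and 80.7, 83.4 and 29.0 CPM in wildtype mice. The highest mice and the lowest mouse were all wildtype, and the log2 fold of -0.15 had a standard error of 0.35. Per kilobase, Col11a2 over Col11a1 was 0.526, 0.444 and 0.817 in knockout and 0.574, 0.565 and 1.246 in wildtype mice. The chains of type V collagen, which sets the width of type I fibrils, also overlapped. Col5a1 had 32.3, 24.4 and 30.1 CPM in knockout and 33.0, 31.8 and 20.0 CPM in wildtype mice. Col5a2 had 17.3, 18.8 and 23.6 CPM in knockout and 24.0, 17.9 and 14.1 CPM in wildtype mice. Col5a3 had 3.41, 3.93 and 4.09 CPM in knockout and 5.11, 4.11 and 3.47 CPM in wildtype mice. In all 3 type V genes wildtype replicate 1 was the highest library, and wildtype replicate 3 was the lowest for Col5a1 and Col5a2.

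The remaining fibrillar genes overlapped between genotypes. Col27a1, of developing cartilage, had 7.22, 6.96 and 6.99 CPM in knockout and 8.05, 8.53 and 6.27 CPM in wildtype mice. Col2a1, the main cartilage collagen, had 1.67, 0.946 and 0.786 CPM in knockout and 1.02, 1.58 and 1.54 CPM in wildtype mice. In both, wildtype replicate 2 or knockout replicate 1 was highest and no genotype was uniformly low. Col24a1, a minor fibrillar chain, had 1.46, 0.756 and 0.978 CPM in knockout and 0.524, 0.665 and 0.977 CPM in wildtype mice. Its log2 fold of 0.59 was the highest of the collagens but had a standard error of 0.32, and knockout replicate 1 stood above the other 5 mice. Without it the fold was 0.31.

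The 6 type IV genes were all tested and none reached an unadjusted p under 0.05, with a median log2 fold of -0.04, 2 above 0 and 4 below. Col4a1, a chain of the network found in every basement membrane, had 78.5, 81.5 and 80.8 CPM in knockout mice, against 90.4, 83.1 and 68.7 CPM in wildtype mice. Its partner Col4a2 had 93.9, 97.8 and 103 CPM in knockout and 109, 103 and 77.7 CPM in wildtype mice. In both genes the knockout mice lay inside the range of the wildtype mice, and the log2 folds were -0.001 (SE 0.09) and 0.04 (SE 0.11). The ratio of Col4a2 to Col4a1 per kilobase stayed between 1.16 and 1.31 in the 6 mice. Both genes had the same mice at the ends of their range, wildtype replicate 1 being highest and wildtype replicate 3 lowest.

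The pair is transcribed head to head, and the window of Col4a2 is shown because it holds both start sites (chr8:11312555-11312854, plus strand, RefSeq on GRCm38.p6, with GGGCGG in capitals on either strand).
Col4a2 promoter: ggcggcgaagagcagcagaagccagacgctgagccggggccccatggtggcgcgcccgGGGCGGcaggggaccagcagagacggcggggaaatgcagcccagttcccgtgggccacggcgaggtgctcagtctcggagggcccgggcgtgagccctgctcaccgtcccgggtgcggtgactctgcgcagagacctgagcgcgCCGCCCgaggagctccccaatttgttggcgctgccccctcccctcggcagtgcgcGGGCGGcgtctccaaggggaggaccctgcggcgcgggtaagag
The annotated start of Col4a2 is at base 11312805 and that of Col4a1 at base 11312826, so that the first 22 bases of the messages overlap on opposite strands. The window has a GC content of 73.7% and holds 3 GC boxes, GGGCGG on either strand. A GC box was found in 23 of 38 such windows of collagen genes (60.5%, over 35 genes with a window from 250 bases before to 50 after the start), against 35.7% of 32851 windows of all genes. A match describes letters and is not a test of binding.

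The other type IV chains, which form special networks in kidney, eye and smooth muscle, were low here. Col4a5 had 6.44, 7.41 and 6.69 CPM in knockout and 5.91, 7.34 and 4.95 CPM in wildtype mice, a log2 fold of 0.18 (SE 0.15) with overlapping groups. The fold was 0.05 without wildtype replicate 3 and 0.34 without wildtype replicate 2. Its neighbour Col4a6 had 1.49, 2.12 and 2.01 CPM in knockout and 2.12, 1.95 and 1.92 CPM in wildtype mice. Col4a5 exceeded Col4a6 in every mouse, by 2.62 to 4.41 times per kilobase. Col4a3, a chain of the kidney's filter, had 0.341, 0.719 and 0.769 CPM in knockout and 0.623, 0.734 and 0.630 CPM in wildtype mice. Its partner Col4a4 had 0.960, 0.227 and 0.681 CPM in knockout and 0.923, 0.482 and 0.977 CPM in wildtype mice. Both were too few in reads to separate the genotypes, and the mouse that was lowest differed between them.

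Of the 27 other types 25 were tested, with 12 folds above 0, 13 below and a median log2 fold of -0.03. Col9a3, a chain of type IX collagen that sits on the surface of cartilage fibrils, had 9.63, 7.75 and 8.65 CPM in knockout mice, against 11.1, 12.4 and 10.3 CPM in wildtype mice. All knockout mice lay under all wildtype mice, with a log2 fold of -0.37 (SE 0.11), an unadjusted p of 0.00941 and an adjusted p of 0.337 from edgeR. The antisense neighbour Tcfl5 shares 6.07% of the exonic bases of Col9a3 and averaged 7.17 reads, against 387 for Col9a3. The other type IX chains were lower and overlapped. Col9a1 had 0.589, 0.454 and 0.524 CPM in knockout and 0.923, 0.505 and 0.725 CPM in wildtype mice, a log2 fold of -0.43 (SE 0.30) that was -0.20 without wildtype replicate 1. Col9a2 lay between 2.36 and 3.40 CPM in the 6 mice.

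Col12a1, which links fibrils in tendon and other dense tissue, was the last of the 4 genes at an unadjusted p under 0.05. It had 21.4, 20.3 and 15.0 CPM in knockout mice, against 14.7, 15.9 and 15.6 CPM in wildtype mice. Knockout replicates 1 and 2 stood above the wildtype mice, while knockout replicate 3 lay among them. The log2 fold was 0.30 (SE 0.13), with an unadjusted p of 0.0437 and an adjusted p of 0.454 from edgeR. It was 0.19 without knockout replicate 1 and 0.45 without knockout replicate 3. Other fibril-associated types overlapped between genotypes. Col19a1 had 37.2, 44.8 and 37.1 CPM in knockout and 40.5, 39.3 and 28.7 CPM in wildtype mice, and Col16a1 had 16.1, 16.8 and 15.0 CPM in knockout and 18.5, 19.04 and 14.6 CPM in wildtype mice. For both the lowest mouse was wildtype replicate 3. Col20a1 went the other way, with 11.3, 11.5 and 12.6 CPM in knockout and 11.2, 6.93 and 13.7 CPM in wildtype mice, though an annotated transcript on its own strand shares 1.54% of its exonic bases and averaged 370 reads. Col14a1 and Col22a1 ranged from 0.945 to 1.95 CPM and from 2.06 to 5.48 CPM over the 6 mice.

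The neuronal transmembrane collagen Col25a1 had 149, 158 and 161 CPM in knockout mice, against 173, 159 and 103 CPM in wildtype mice. The knockout mice lay within the wildtype range, and the log2 fold was 0.11 (SE 0.16). Col23a1, another transmembrane type, had 13.8, 13.9 and 18.8 CPM in knockout and 17.4, 17.8 and 13.9 CPM in wildtype mice, and Col13a1, of the neuromuscular junction, lay between 0.619 and 1.22 CPM. Neither separated the genotypes.

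Type VI collagen forms beaded filaments around cells. Col6a1 had 53.2, 47.1 and 68.0 CPM in knockout and 78.8, 52.6 and 34.6 CPM in wildtype mice, a log2 fold of 0.03 (SE 0.25). Col6a2 had 12.3, 10.4 and 13.1 CPM in knockout and 15.2, 13.9 and 9.49 CPM in wildtype mice. Col6a3 had 2.79, 3.48 and 4.24 CPM in knockout and 4.34, 9.06 and 3.12 CPM in wildtype mice, a log2 fold of -0.64 (SE 0.35) in which wildtype replicate 2 stood above the other 5 mice. Without that mouse the log2 fold was -0.08. The chains that assemble together were unequal in message. Per kilobase Col6a2 was 0.170 to 0.242 of Col6a1, and Col6a3 was 0.0212 to 0.0699 of it, in every mouse of either genotype. The chains Col6a4, Col6a5 and Col6a6, which lie on chromosome 9, differed widely between mice of the same genotype. Col6a4 had 2.88, 7.98 and 1.14 CPM in knockout and 4.59, 0.849 and 4.48 CPM in wildtype mice, a spread of 9.40 times that did not follow genotype. In Col6a5 and Col6a6 knockout replicate 3 was with wildtype replicates 1 and 2 at the high end, the highest mouse being 3.45 and 4.41 times the lowest.

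Types XV and XVIII, the proteoglycan collagens of vascular basement membranes, overlapped. Col15a1 had 6.75, 8.32 and 6.17 CPM in knockout and 8.88, 9.29 and 4.73 CPM in wildtype mice. Col18a1, the source of endostatin, had 4.09, 3.90 and 4.23 CPM in knockout and 5.01, 5.12 and 3.88 CPM in wildtype mice, a log2 fold of -0.19 (SE 0.14) that was -0.31 without wildtype replicate 3 and -0.12 without wildtype replicate 2. Wildtype replicates 1 and 2 were the highest mice for both, and wildtype replicate 3 the lowest. Col26a1, a less studied type, had 3.35, 3.44 and 3.09 CPM in knockout and 2.59, 3.12 and 2.62 CPM in wildtype mice, with a log2 fold of 0.25 (SE 0.14) and a slight overlap. Col7a1, of the skin's anchoring fibrils, had 5.23, 5.14 and 5.82 CPM in knockout and 5.04, 4.66 and 6.52 CPM in wildtype mice. The low genes Col8a1, Col8a2 and Col28a1 lay between 0.284 and 1.69 CPM in the 6 mice.

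Summed over all 44 genes, collagen made up 721, 753 and 748 CPM in knockout mice, against 849, 798 and 563 CPM in wildtype mice. The means were 740.5 ± 16.8 CPM in knockout and 736.5 ± 153 CPM in wildtype mice (SD, n = 3 each), nearly the same level with a spread that was wider in the wildtype. Fibrillar genes summed to 176, 184 and 162 CPM in knockout and 213, 212 and 125 CPM in wildtype mice. Type IV genes summed to 182, 190 and 194 CPM in knockout and 209, 196 and 155 CPM in wildtype mice. The other types summed to 364, 379 and 391 CPM in knockout and 428, 389 and 283 CPM in wildtype mice. In each class wildtype replicate 1 was the highest mouse in CPM, wildtype replicate 3 the lowest, and the knockout mice lay between them. For fibrillar genes wildtype replicates 1 and 2 were nearly equal, and per kilobase replicate 2 was the higher, at 30.59 against 30.56. Most of the type IV sum was Col4a1 and Col4a2. Fibrillar, type IV and other types held 21.05%, 23.3% and 55.7% of the summed level per kilobase.

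**Figure D3:**
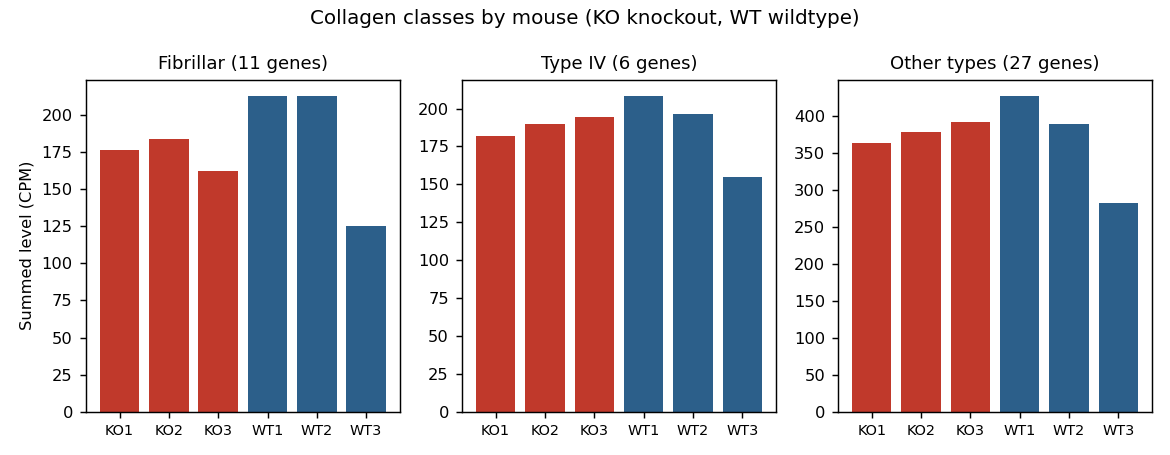
Summed CPM of fibrillar, type IV and other collagen genes in each knockout (KO) and wildtype (WT) mouse; each bar is a mouse and axes start at 0. In all 3 classes WT3 is the lowest bar, at 125, 155 and 283 CPM, and WT1 the highest, nearly level with WT2 in the fibrillar class.

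The difference between wildtype mice in summed collagen exceeded that between genotypes. Wildtype replicate 3 was the lowest library for 18 of the 42 tested collagens (42.9%), against 14.9% of all tested genes. Its median log2 deviation from the mean of the other 5 mice was -0.26 over the collagens and 0.01 over all genes. The other medians over the collagens were -0.03, -0.01 and 0.04 in knockout replicates 1 to 3, and 0.17 and 0.21 in wildtype replicates 1 and 2. Relative to the mean of the other 5 mice, wildtype replicate 3 had 0.427 of the level of Col11a1, 0.577 of Col6a1, 0.600 of Col15a1, 0.642 of Col25a1 and 0.661 of Col5a1. It lay below the mean of the other mice in 29 of the 42 genes (69.0%), against 46.4% of all genes, and these 29 were 9 of 11 fibrillar, 3 of 6 type IV and 17 of 25 other genes. Above that mean lay 13 genes, among them Col20a1 at 1.28 and Col7a1 at 1.26 times it. The largest log2 deviations upward were those of the low genes Col6a4 at 0.78, Col4a4 at 0.63 and Col8a2 at 0.50. In type IV the low level was that of Col4a1, Col4a2 and Col4a5, while Col4a3, Col4a4 and Col4a6 lay at or above the mean log2 level of the other mice.

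Collagen messages are long and rich in G and C, with medians of 6083.5 bases and 55.4% GC over the tested collagens, against 3205 bases and 50.3% over tested genes. Wildtype replicate 3 was the lowest library for 12.9% of genes among the longest 20% and for 11.6% among the 20% of highest GC. In that high-GC group knockout replicates 2 and 3 were the lowest library for 31.6% and 31.3% of genes, and wildtype replicates 1 and 2 the highest for 30.0% and 29.1%. Of the 42 collagens 20 belong to it. The part of transcript length or GC content in the collagen values was not tested.

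**Figure D4:**
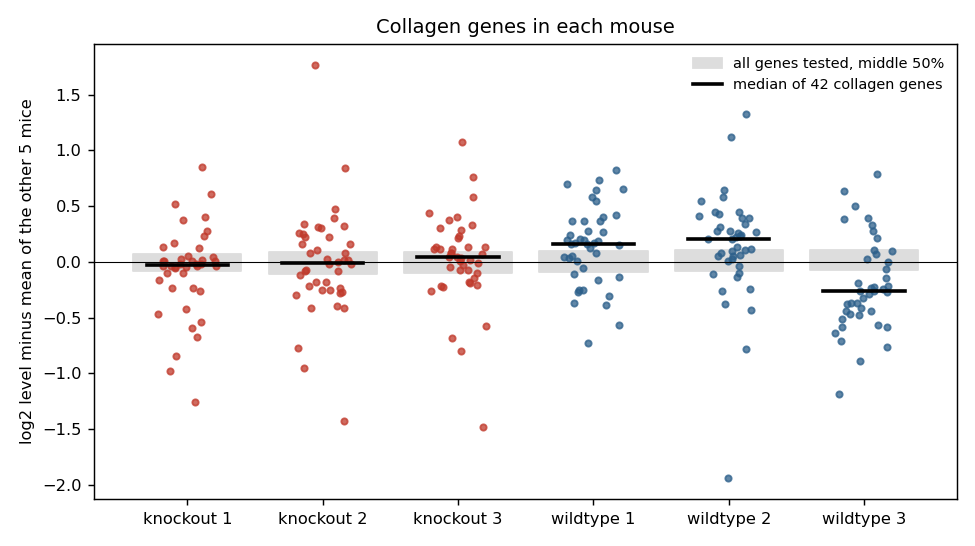
Log2 level of each of the 42 tested collagen genes in a mouse minus its mean in the other 5 mice (points), with the collagen median (black line) and the middle 50% of all tested genes (grey). The collagen median is 0.17 and 0.21 in wildtype 1 and 2 and -0.26 in wildtype 3, and near 0 in the knockout mice.

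With wildtype replicate 3 left out, which leaves 2 wildtype mice, 2 collagens were higher and 8 lower in knockout at an unadjusted p under 0.05. The 2 were 4.76% of the 42, against 5.18% of all genes higher in the same fit, and the 8 were 19.05%, against 5.85% lower. The median log2 fold of the collagens was then -0.14, with -0.15 for fibrillar, -0.11 for type IV and -0.18 for other types, and the median of all genes was -0.0004. No collagen passed the adjusted threshold, the smallest adjusted p being 0.0609 for Col11a2. With all 6 mice the count was 2 lower. The count of lower collagens therefore depends on 1 wildtype mouse. That mouse was singled out because it had the least collagen, so leaving it out raises the wildtype collagen level and moves the folds down. The 19.05% against 5.85% is thus not independent support for lower collagen in knockout mice.

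Seed matches of the cluster were about as common in collagen 3′ UTRs as in others. At least 1 of the 4 seeds had a match in 15 of the 44 collagens (34.1%), against 33.2% of 14509 tested genes with a 3′ UTR. The miR-17 seed was in 5 (11.4%, against 14.4%), miR-18 in 4 (9.09%, against 9.24%), miR-19 in 1 (2.27%, against 13.1%) and miR-92 in 6 (13.6%, against 7.58%). The miR-92 sites printed above lie in 5 of 11 fibrillar genes, 0 of 6 type IV genes and 1 of 27 others. Of the 6 type IV genes 3 hold a miR-17 site, Col4a2, Col4a3 and Col4a4. The miR-29 seed was in 25 collagens (56.8%), against 15.4% of genes, and in all 6 type IV and 9 of 11 fibrillar genes. There were 0.693 miR-29 sites per kilobase of collagen 3′ UTR, against 0.112 in tested genes, with a median 3′ UTR of 1032.5 and 1182 bases. Col5a1, Col26a1 and Col4a3 held the most, 4 each. Examples from the most studied chains are shown for comparison with the cluster sites.
Col1a1, miR-29: ggaaggaatttcTGGTGCTatagaagctga
Col3a1, miR-29: aaaatgtctcaaTGGTGCTataataaataa
Col4a1, miR-29: accgtcacaacaTGGTGCTactcccccccc

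The folds of collagens with and without a cluster site were close to 0. The median log2 fold was 0.07 over the 14 tested collagens with a site and -0.07 over the 28 without, a description with no test. Among the 6 genes with a miR-92 site the median was 0.04. Col1a2 and Col12a1, the pair higher at an unadjusted p under 0.05, each hold a miR-92 site. Col11a2 and Col9a3, the pair that was lower, hold no match of the 4 seeds, like 28 of the 42 tested collagens. These pairs were picked by their p-values. With a miR-92 site too, Col1a1 and Col5a1 had log2 folds of 0.05 and 0.04, and Col11a1 and Col27a1 had -0.15 and -0.11. Col25a1 with its miR-19 site had 0.11 and Col4a2 with its miR-17 site 0.04. Over the 25 collagens with a miR-29 site the median was -0.001, and over the 17 without it was -0.03.

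**Figure D5:**
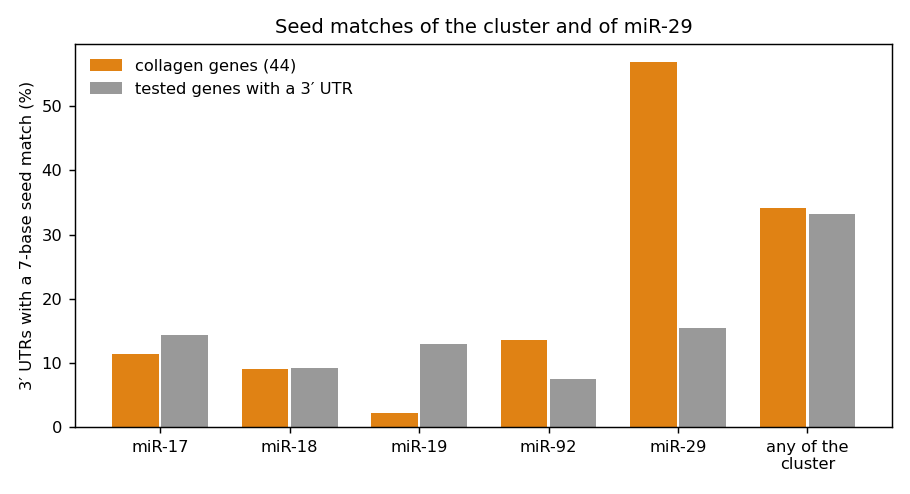
Share of 3′ UTRs with a match to each seed, for the 44 collagen genes (orange) and for 14509 tested genes (grey). Collagens stand at 56.8% against 15.4% for miR-29 and at 34.1% against 33.2% for any seed of the cluster.

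Genes that build, cut and bind collagen were described from lists of the pathway, beside 5.05% of all genes higher and 5.58% lower at an unadjusted p under 0.05. The lists were chosen with earlier results of these data known, so a count above those shares is a description and not independent support. Of 19 folding and hydroxylation genes none was at an unadjusted p under 0.05, with a median log2 fold of 0.03. The smallest p there was that of Plod2, a lysyl hydroxylase, at 13.5, 13.0 and 14.8 CPM in knockout and 11.8, 12.8 and 12.4 CPM in wildtype mice. Of 13 genes of procollagen processing and crosslinking 1 was lower and none higher, with a median of -0.06. It was Adamts2, which cuts the amino end of fibrillar procollagen, at 11.1, 11.7 and 12.4 CPM in knockout and 16.0, 12.6 and 16.3 CPM in wildtype mice. Its groups did not overlap, with a log2 fold of -0.34 (SE 0.11), an unadjusted p of 0.0142 and an adjusted p of 0.358 from edgeR.

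Of 9 collagen receptors 1 was lower, Ddr1, a receptor kinase that collagen activates, at 55.8, 54.5 and 53.7 CPM in knockout and 61.4, 69.7 and 62.9 CPM in wildtype mice. All knockout mice lay below, with a log2 fold of -0.23 (SE 0.06), an unadjusted p of 0.00246 and an adjusted p of 0.285 from edgeR. Of 10 genes of collagen breakdown 1 was higher, the metalloprotease inhibitor Timp4, at 28.2, 30.3 and 30.8 CPM in knockout and 28.0, 26.8 and 24.99 CPM in wildtype mice, a log2 fold of 0.17 (SE 0.06) with an adjusted p of 0.410 from edgeR. The medians of the receptors and of the breakdown genes were -0.01 and 0.05.

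Of 15 other basement membrane genes, which share their sheet with type IV collagen, 4 were lower and none higher at an unadjusted p under 0.05, against 5.58% lower and 5.05% higher over all genes, with a median log2 fold of -0.11. Lama5, a laminin chain of vascular and meningeal basement membranes, had 13.1, 13.8 and 12.1 CPM in knockout mice, against 16.2, 16.98 and 18.1 CPM in wildtype mice. The groups did not overlap, and the log2 fold was -0.39 (SE 0.08), with an adjusted p of 0.229 from edgeR and 0.0250 from DESeq2. The others were Lama2 at -0.28 (SE 0.10, and -0.17 without wildtype replicate 2), the perlecan gene Hspg2 at -0.25 (SE 0.09) and Lamb3 at -0.44 (SE 0.19). Lamb3 was low, at 1.05, 1.02 and 0.891 CPM in knockout and 1.30, 1.47 and 1.26 CPM in wildtype mice. DESeq2 gave it no adjusted p. Type IV collagen itself had no gene at an unadjusted p under 0.05 with edgeR. No gene of these 5 lists passed the adjusted threshold with edgeR, as no tested gene did.

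Markers of cells that make collagen moved unevenly beside these values. These lists too were chosen with earlier results of these data known, so their counts are a description and not independent support. Of 16 tested meningeal fibroblast markers 8 were higher in knockout at an unadjusted p under 0.05, against 5.05% of all genes, and 16 had a fold above 0, with a median log2 fold of 0.43. Their summed level was 411.6 to 515 CPM in knockout and 301 to 350 CPM in wildtype mice, and none was at 0 reads in all libraries. Ptgds gave the largest part of that sum, at 290, 204 and 303 CPM in knockout and 152, 173 and 199 CPM in wildtype mice. Dcn, the proteoglycan decorin of collagen fibrils, had 43.0, 44.6 and 63.5 CPM in knockout and 48.6, 49.3 and 42.1 CPM in wildtype mice, while the growth factor gene Igf2 had 61.3, 65.6 and 43.3 CPM in knockout and 30.4, 38.9 and 30.6 CPM in wildtype mice. The groups overlapped for Dcn and did not for Igf2. The adjusted p of Dcn was 0.778 with edgeR and 0.833 with DESeq2, and that of Igf2 was 0.227 with edgeR and 0.0272 with DESeq2. Ogn and Slc13a4 had 0.317 and 0.285 with edgeR, and 0.0176 and 0.00878 with DESeq2. The other markers of the list to which DESeq2 gave an adjusted p were above 0.05. DESeq2 called 1.25% of all genes. Of the collagens, Col1a2 and Col12a1 were higher in knockout at an unadjusted p under 0.05 with edgeR. The genotypes overlapped for Col12a1, Col1a1 and Col3a1. Of 10 endothelial markers 1 was higher and 3 were lower, against 5.05% and 5.58% of all genes, summing to 196 to 208 CPM in knockout and 204 to 225 CPM in wildtype mice. Of 10 mural cell markers 2 were higher, against the same 5.05%, summing to 229 to 242 CPM in knockout and 232 to 254 CPM in wildtype mice. Over these 3 lists wildtype replicate 3 was the lowest library for 4 of 16, 2 of 10 and 4 of 10 genes. The part of cell makeup in the collagen values was not tested.

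Chromosomal neighbours of the 4 collagens at an unadjusted p under 0.05 were also counted. Over all genes 10.6% were at that threshold, 5.05% higher and 5.58% lower. Of the 20 nearest tested genes, 3 were at it around Col11a2 on chromosome 17 (1 higher, 2 lower). Near Col9a3 on chromosome 2 there were 2 of 20, both lower. Col12a1 on chromosome 9 had 4 of 20, all higher. Around Col1a2 on chromosome 6 it was 0 of 15. Of the 2 lower genes around Col9a3, 1 was Lama5, described above with the basement membrane genes, at a log2 fold of -0.39 (SE 0.08). The count around Col9a3 was near the 10.6% over all genes, and its 20 neighbours had a median log2 fold of -0.07. Whether the lower levels of Col9a3 and Lama5 are 1 regional observation was not tested.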

How the data were processed

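For each mouse the authors deposited a table of raw counts, the reads assigned to each of 37620 Ensembl identifiers. The submitters' processing notes name FastQC 0.10.1, STAR 2.3.0e, SAMtools, HTSeq, DESeq2 and build mm9. What each tool did, which annotation was used and whether strand was kept is not stated in the labels used here. How reads in bases shared by a collagen and another gene were counted is therefore not known (13 collagens share exonic bases with another gene, at most 6.07%). The 5 closing rows of a table name no gene, held 38.0% to 40.3% of its total and were left out.

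Symbols came from GENCODE M21 (32897 identifiers matched), as did 3′ UTRs and the longest protein-coding transcript used for length and GC. Since reads were counted on mm9, no gene coordinates are given apart from the RefSeq promoter window. CPM uses the gene total as library size, and fits use TMM factors (0.996 to 1.00). Deviations are on log2(CPM + 0.1).

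The test was edgeR 4.0.16 (R 4.3.3), filterByExpr, quasi-likelihood on genotype alone, with Benjamini-Hochberg adjustment over 16432 genes at 0.05. P-values measure the spread between these mice. Alternatives were DESeq2 1.42.0 and its size factors, upper quartile factors, no filter, a filter of 1 CPM in 3 libraries, limma-voom (limma 3.58.1), edgeR's robust fit, a replicate block, and leaving out each mouse. The fit was tested on simulated counts of 16276 genes. It found 28% of genes set to change 1.25-fold, 64% of those set to 1.5-fold, 80% of those set to 2-fold and 94% of those set to 3-fold. Of its 138 calls 5 were false. The simulated counts carried only the fit's negative binomial dispersion, without each gene's further spread between mice. These shares are therefore not the power of the real comparison, in which 0 of 16432 genes were called.

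The collagen members, pathway lists and marker lists (191 of 193 entries matched) were chosen with earlier results of these data known. By the rule for named genes, all collagens are accounted for. Values per library are given for fibrillar and type IV genes, for other members of 5 CPM or more, and for the 5 members with the smallest p per direction. Up to 4 genes of smallest p could be named from each pathway list, and from each marker list the first 3 written and 2 of smallest p. Values per library of Col6a4, Col10a1 and Col17a1, and the adjusted p of Slc13a4, were added after they were seen.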

Additional observations from a re-analysis of the deposited data

How the results depend on the processing

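No collagen was called under any edgeR or limma setting. DESeq2 called 1 collagen and 164 genes, no filter 62 genes and edgeR's robust fit 15 genes, and leaving out a mouse 0 to 17 genes, while DESeq2 size factors, upper quartile factors, a filter of 1 CPM and limma-voom called 0. Of collagens at an unadjusted p under 0.05, 4 with all mice, leaving out a mouse gave 2 to 10: 10 without wildtype replicate 3, 7 without knockout replicate 3, and 2 without knockout replicate 2 or wildtype replicate 1. Leaving out a mouse moved the median log2 fold from -0.1541 to 0.0808 in fibrillar genes and from -0.1821 to 0.0387 in other types. It moved Col25a1 from -0.0823 to 0.26, Col11a1 from -0.49 to 0.0808, Col4a1 from -0.11 to 0.0891, Col4a2 from -0.10 to 0.14, Col6a1 from -0.21 to 0.38 and Col1a1 from -0.0802 to 0.13. The fold of Col4a1, at 0 within its error, was 0.0034 with limma-voom and 0.0098 with the replicate block. The cause of that sign change was not tested.

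The replicate numbers do not pair mice, which came from different litters. Correlations of the deviations of same-numbered mice were -0.104, -0.021 and -0.152. With the replicate block 0 genes and 0 collagens were called, and 3 collagens were at an unadjusted p under 0.05, 1 higher and 2 lower, the smallest adjusted p being 0.376 for Col1a2.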

Other observations

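Marker lists of other cells were read beside the collagens at an unadjusted p under 0.05 with edgeR, knockout over wildtype, where 5.05% of all genes were higher and 5.58% lower. Like the lists above, they were chosen with earlier results of these data known. Of 9 choroid plexus markers 1 was higher and 0 lower. Ttr, its defining transport protein, had 1.55, 4.12 and 5.71 CPM in knockout and 39.1, 4.89 and 2.49 CPM in wildtype mice, so wildtype replicate 1 stood far above the other 5. Oligodendrocyte precursor markers gave 0 of 7 in either direction, interneuron markers 0 of 8, hippocampal neuron markers 1 higher of 8 and thalamus markers 2 lower of 6. The hippocampal gene was Calb1, a calcium-binding protein of granule and pyramidal neurons, at 167, 172 and 180 CPM in knockout and 124, 118 and 137 CPM in wildtype mice. The genotypes did not overlap, and its adjusted p was 0.0624 with edgeR, where no tested gene had a smaller one, and 3.37e-09 with DESeq2. Wildtype replicate 3, the library with the least collagen, was the lowest library for 2 choroid plexus markers, 0 precursor markers, 0 interneuron markers, 1 hippocampal neuron marker and 1 thalamus marker.

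Further genes of the collagen pathway had these levels, with none at an unadjusted p under 0.05. P4ha2, a prolyl hydroxylase, averaged 26.96 ± 9.40 CPM in knockout and 21.5 ± 1.06 CPM in wildtype mice (SD, n = 3 each). Sparc, a collagen-binding protein, averaged 248 ± 15.7 CPM in knockout and 223 ± 25.1 CPM in wildtype mice. The collagen receptor subunit Itgb1 averaged 62.8 ± 4.32 CPM in knockout and 60.1 ± 3.41 CPM in wildtype mice. Mmp2, a gelatinase, averaged 2.92 ± 0.396 CPM in knockout and 2.42 ± 0.348 CPM in wildtype mice. Wildtype replicate 3 was the lowest library for 5 of 19 folding, 4 of 13 processing, 2 of 9 receptor, 1 of 10 breakdown and 1 of 15 other basement membrane genes.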
